A study of Mus musculus with 8 samples.

Results

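The 37 genes described here encode the machinery of DNA replication and of S phase: 3 genes of origin licensing, 12 of the replicative helicase, 4 of the replicative polymerases, 5 of the sliding clamp and its loader, 3 of lagging strand synthesis and uracil repair, 3 of nucleotide supply, 3 of chromatin and histone supply and 4 of S phase entry and its checkpoint. They were chosen by function, as the rows of a count table of 26146 gene symbols that carry these names, and no measured value enters the rule. All 37 were found, and all 37 were among the 13439 genes with enough counts to be tested. Messenger RNA was measured by bulk polyA RNA sequencing of Lin-Sca1+Kit+ (LSK) cells, the bone marrow fraction that holds haematopoietic stem cells and early multipotent progenitors. The groups were 4 wild type mice and 4 mice whose floxed Jmjd6 had been deleted by a Cre active in haematopoietic lineages, described as cell type specific (Jmjd6 KO), with 1 library per mouse. The Cre line, the age and the sex of the mice, and whether wild type mice carried the Cre or the floxed allele, were not stated in the labels. Jmjd6 encodes a JmjC-domain oxygenase.

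A cell licenses its replication origins in G1, when the origin recognition complex, Cdc6 and Cdt1 load the ring of Mcm2 to Mcm7 onto DNA. At the start of S phase Cdc45 and the GINS complex join the ring to make the active helicase, the polymerases copy each strand, and the clamp Pcna, opened and closed by the Rfc loader, holds them on the template. Transcription of many of these genes depends on E2F factors and peaks around the entry into S phase, so that their RNA level in a population follows how many cells are cycling. In bulk RNA a change in the number of cells in S phase and a change in RNA per cell cannot be told apart. Most haematopoietic stem cells rest outside the cycle, while the progenitors in the LSK fraction divide often.

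The promoters of the genes are shown first because shared E2F letters are the best known sequence feature of replication genes. Promoter windows of 300 bases, from 250 before to 50 after the start site, were taken from RefSeq (GRCm38.p6) and matched 30 of the 37 genes. Mcm4, Gins1, Gins2, Gins4, Pole, Rfc2 and Ccne2 were not matched. The stretches printed below are the 170 bases before the start site on the strand of the gene, with capitals marking the letters TTTCCCGC, TTTGGCGC, TTTCGCGC or TTTGCCGC on either strand. Mcm5 (chr8:75109339-75109508, plus strand), Mcm6 (chr1:128359706-128359875, minus strand), Cdc6 (chr11:98907981-98908150, plus strand) and Pola1 (chrX:93632156-93632325, minus strand) hold such letters, and Mcm2 (chr6:88898781-88898950, minus strand) is set beside them as a ring subunit without them.
Mcm5: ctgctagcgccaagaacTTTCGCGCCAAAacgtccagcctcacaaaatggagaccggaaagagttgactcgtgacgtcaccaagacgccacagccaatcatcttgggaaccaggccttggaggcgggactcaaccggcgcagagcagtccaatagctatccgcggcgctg
Mcm6: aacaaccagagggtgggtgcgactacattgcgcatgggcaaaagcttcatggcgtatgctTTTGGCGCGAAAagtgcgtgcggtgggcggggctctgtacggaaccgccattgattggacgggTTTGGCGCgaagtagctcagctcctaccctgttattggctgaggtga
Cdc6: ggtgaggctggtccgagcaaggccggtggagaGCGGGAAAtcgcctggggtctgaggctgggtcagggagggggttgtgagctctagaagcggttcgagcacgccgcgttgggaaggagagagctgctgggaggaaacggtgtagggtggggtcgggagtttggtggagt
Pola1: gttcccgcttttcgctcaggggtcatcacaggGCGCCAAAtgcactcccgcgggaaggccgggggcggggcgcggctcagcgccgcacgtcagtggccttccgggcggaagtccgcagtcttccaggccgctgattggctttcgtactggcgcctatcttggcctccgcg
Mcm2: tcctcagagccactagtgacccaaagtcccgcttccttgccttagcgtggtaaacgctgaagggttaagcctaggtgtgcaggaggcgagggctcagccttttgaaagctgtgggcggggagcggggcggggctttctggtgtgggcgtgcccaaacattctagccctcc
Matches can overlap, as in Mcm5 and Mcm6, where 2 of the 8-letter words share letters on opposite strands. The Cdc6 stretch lies inside the longer gene model of GENCODE M21.

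At least 1 of the E2F words was present in the windows of 14 of the 30 matched genes (46.7%): Orc1, Cdc6, Cdt1, Mcm3, Mcm5, Mcm6, Mcm7, Gins3, Pola1, Pold1, Rfc3, Lig1, Uhrf1 and Clspn. The same words were found in 4.7% of the 10303 tested genes with a window and in 2.6% of all 27025 genes with one. CCAAT, the letters bound by NF-Y, stood on either strand in 60.0% of the matched genes and in 43.0% of the tested genes. The ETS letters CACTTCCGG or CCGGAAG, which overlap each other, stood in 33.3% against 20.0%. The CHR letters TTTGAA or TTCGAA, known from G2 and mitosis genes, stood in 20.0% against 16.7%. A match describes letters in a window and is no evidence of binding.

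None of the 37 replication genes passed an adjusted p of 0.05 between Jmjd6 KO and wild type by edgeR's quasi-likelihood test, where 8 of 13439 genes (0.0595%) did. Their fold changes were small and nearly all on 1 side: 34 of 37 genes (91.9%) had a log2 fold change above 0, against 49.6% of all tested genes, and the median was 0.18, with quartiles of 0.09 and 0.29, against 0.00 over all tested genes. The exceptions were Pold1, Ccne1 and Clspn. The count above 0 was between 30 (library size scaling) and 36 (without wild type replicate 1) over the alternatives run. The extremes were Gins1 at 0.50 and Pold1 at -0.15. All 37 genes were measured in the same 8 libraries, so their shared side is not 37 separate observations.

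At an unadjusted p under 0.05 edgeR gave 4 of the 37 genes (10.8%), Fen1, Gins1, Gins2 and Prim1, all higher in Jmjd6 KO, against 6.06% of all tested genes. The smallest adjusted p among the 37 was 0.772. The Wald test of DESeq2 called 0 of the 37 and 0.491% of all genes, and limma voom with sample weights called 0 of the 37 and 0.231% of all genes. DESeq2 placed 4 of the 37 (10.8%) under an unadjusted p of 0.05, against 6.80% of all genes, and voom 2 (5.41%), against 9.96% of all genes, so the share lay above the background with edgeR and DESeq2 and below it with voom. The groups did not overlap for 4 genes, Mcm3, Mcm6, Gins1 and Chaf1b, each higher in every KO library than in every wild type library, against 2.08% of all tested genes. No replication gene was lower in every KO library, against 2.11% of all tested genes. Single libraries set both counts. The 4 genes at an unadjusted p under 0.05 became 0 without wild type replicate 3 (3.97% of all genes), 2 without wild type replicate 4, KO replicate 3 or KO replicate 4 (5.20%, 7.09% and 4.63%), and 7 without KO replicate 2 (6.90%). The 4 genes without overlap became 10 without wild type replicate 1 (8.66% of all genes in either direction, against 4.19% with all libraries), 9 or 7 when KO replicate 2 (6.94%) or KO replicate 3 (7.97%) was removed, and 6 without wild type replicate 2 or KO replicate 1 (7.55% and 7.85%).

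The precision of these comparisons bounds the differences. The 95% interval of the fold change lay within 1.5-fold either way for 22 of the 37 genes (59.5%), against 33.1% of all tested genes, and within 2-fold for all 37. The median SE of the log2 fold change was 0.16, against 0.23 over all tested genes. The median coefficient of variation between libraries was 10.6% in wild type and 16.7% in Jmjd6 KO.

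**Figure D1:**
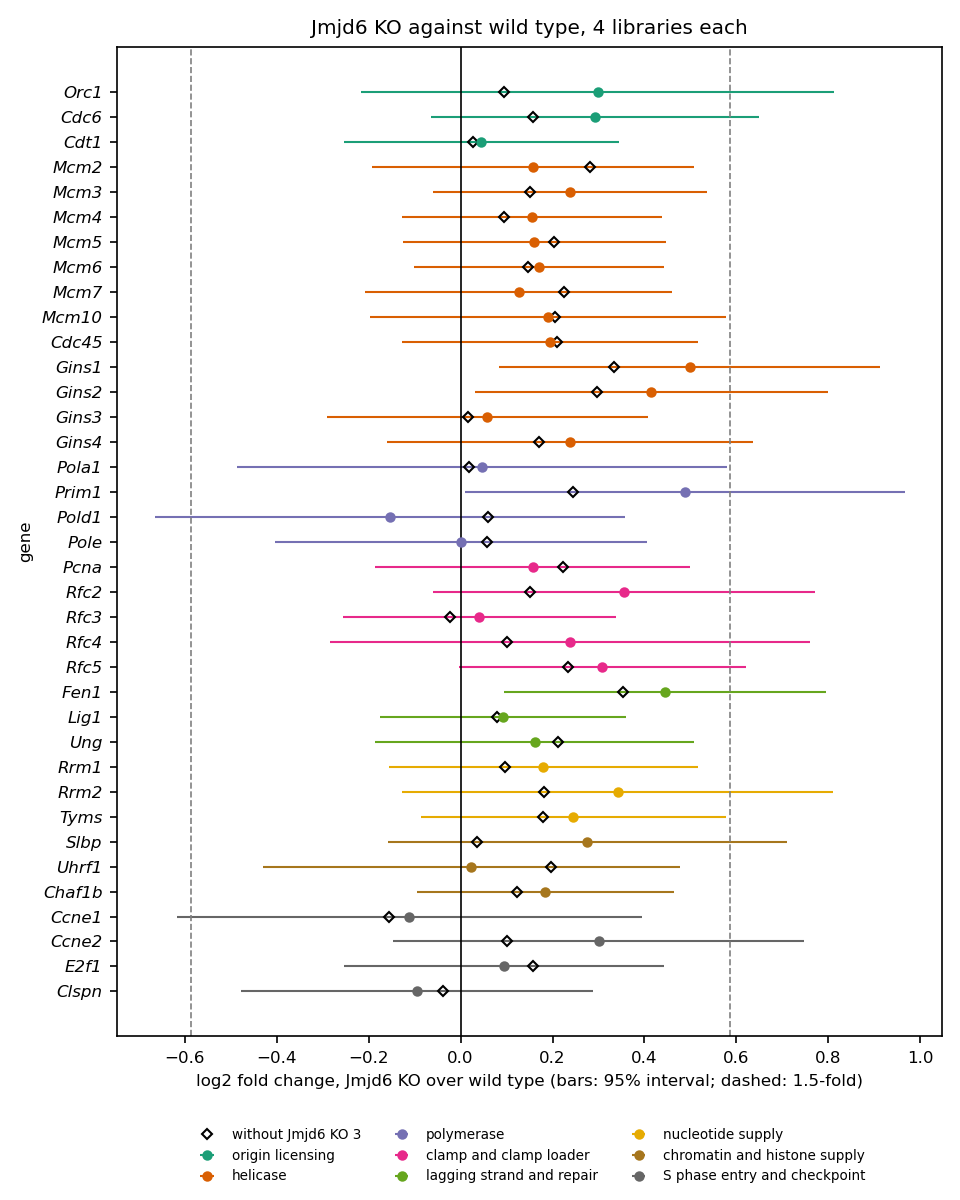
Log2 fold change of each replication gene, Jmjd6 KO over wild type (x axis), by gene (y axis, coloured by role). Points are edgeR estimates from 4 libraries per group, bars are 95% intervals, open diamonds are estimates without Jmjd6 KO replicate 3, and dashed lines mark 1.5-fold. Of the 37 points 34 lie right of 0, and no interval reaches past 2-fold.

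Several features of the libraries bear on all genes. Total counts ranged from 9344779 to 15079960. Jmjd6 itself, the check of the labels, fell from 58.6 ± 5.93 CPM (counts per library size after TMM scaling; mean ± SD, n = 4) to 28.7 ± 1.41 CPM (n = 4), which is -1.03 on the log2 scale (edgeR adjusted p = 0.0381). That call was lost in 7 of 8 fits with a library left out, where the edgeR adjusted p was 0.0986 to 0.254, and kept only without KO replicate 3, although the groups stayed apart. The LSK gate markers, Kit, Ly6a and Cd34 among them, summed to between 2703 and 3338 CPM over the 8 libraries. Jmjd6 KO replicate 3 was the most distant library on the first principal component, and it and wild type replicate 4 were the libraries with 0 Y-linked counts. Wild type replicate 1 held the most granulocyte marker RNA, with 5224 CPM summed over 8 markers, where wild type replicates 2 to 4 held 979 to 1251 CPM and the KO libraries 1547 to 2375 CPM. The largest part of its sum was Mpo, at 3293 CPM. Camp and Ltf of the same list, at 0.994 and 0.773 CPM, were not highest in that library. Wild type replicate 1 also held the most erythroid marker RNA, with 468 CPM over 7 markers against 29.5 to 80.1 CPM elsewhere. Monocyte and macrophage markers summed to 149 to 395 CPM and megakaryocyte markers to 100.2 to 225 CPM, both highest in wild type replicate 1. Of the monocyte and macrophage sum in that library, Ly6c2 made up 230 CPM. The B cell and T cell lists summed to at most 152 and 97.7 CPM, in KO replicate 4 and KO replicate 1, with Cd3e at 0 in 7 libraries. What these features contribute to the replication genes was not tested, except where values without a library are given.

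Summed over the 37 genes, the wild type libraries (replicates 1 to 4) held 7384, 6915, 7049 and 6564 CPM and the Jmjd6 KO libraries 7764, 7558, 8479 and 8027 CPM. Every KO library was above every wild type library, and the mean was 14% higher. The summed CPM of all tested genes was itself 3.52% higher in KO under this scaling. As a share of plain counts, with no scaling, the 37 genes took 0.690% to 0.728% of each wild type library and 0.738% to 0.844% of each KO library, again without overlap. The 12 helicase genes summed to 3040, 3100, 3137 and 2856 CPM in wild type and 3474, 3459, 3399 and 3399 CPM in KO, 13.2% higher in mean. No test was made of these sums.

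**Figure D2:**
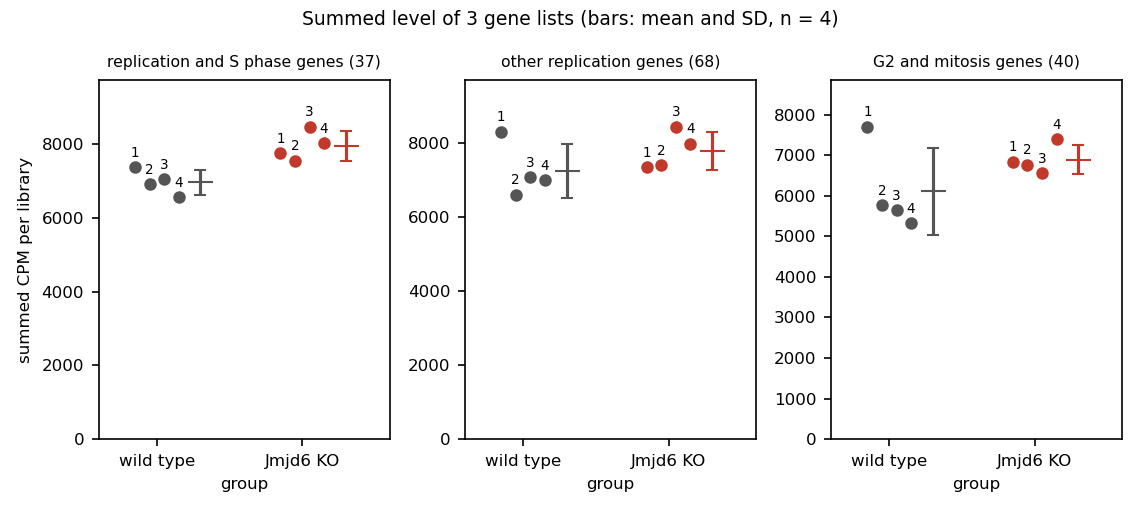
Summed CPM per library (y axis) of the 37 replication genes, of 68 other replication genes and of 40 G2 and mitosis genes, by group (x axis). Numbered points are libraries, and crossbars are the mean and SD of 4. In the first panel KO libraries lie between 7558 and 8479 CPM and wild type libraries between 6564 and 7384 CPM, while wild type replicate 1 is high in the other panels.

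The libraries of a group did not contribute evenly. Jmjd6 KO replicate 3 was the highest library for 19 of the 37 genes (51.4%), whereas it was the highest for 24.5% of all tested genes, and it was the lowest for 4 (10.8%), against 27.8% of all tested genes. Wild type replicates 3 and 4 were the highest for 0 genes. The median deviation of the 37 genes from their own mean, in log2 CPM, was, for replicates 1 to 4 in turn, -0.02, -0.09, -0.07 and -0.12 among wild type and 0.06, -0.04, 0.20 and 0.12 among KO libraries. KO replicate 2 therefore lay inside the wild type range.

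**Figure D3:**
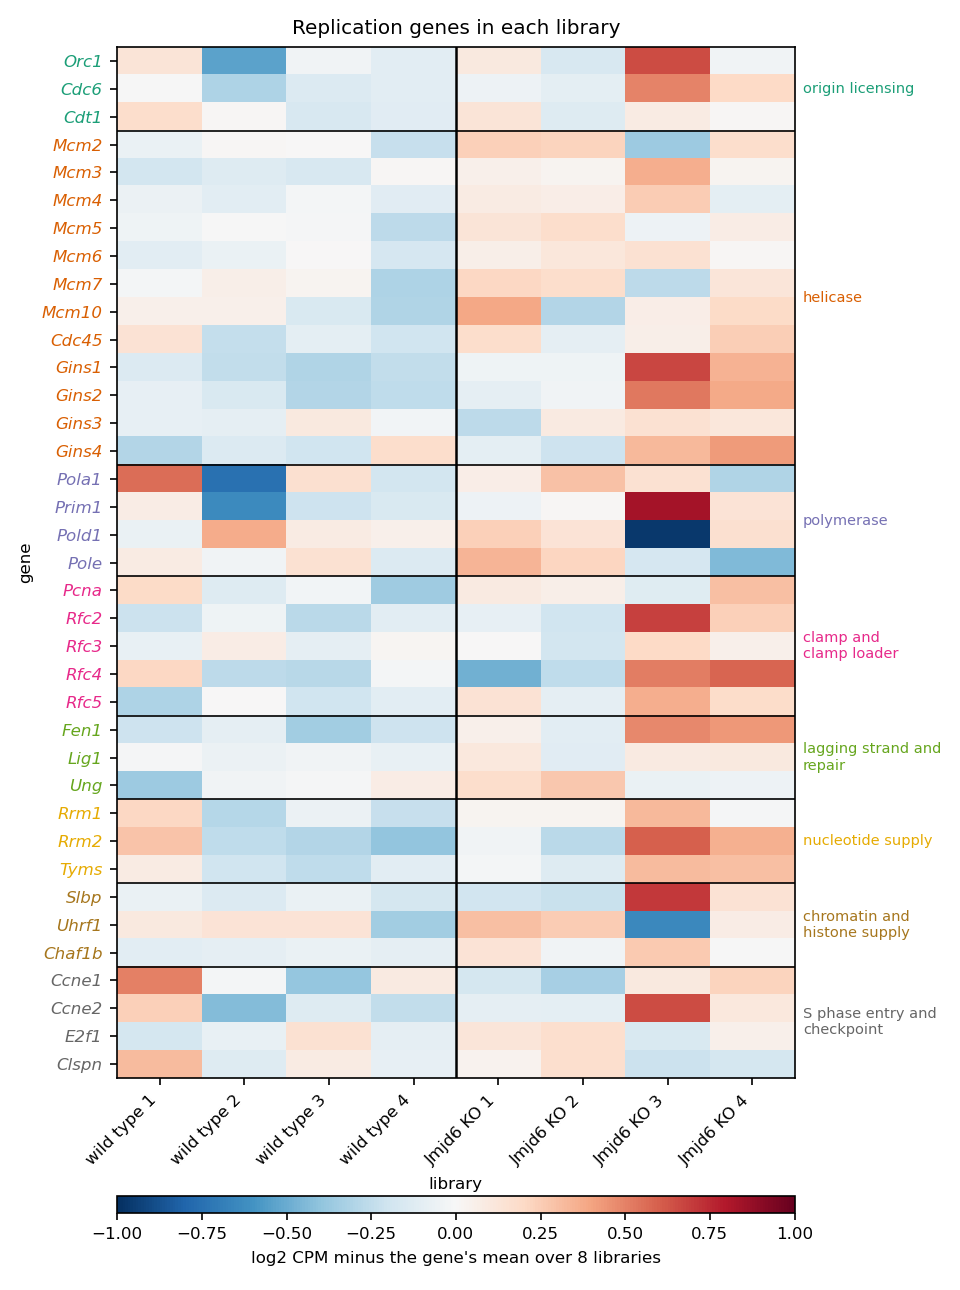
Log2 CPM of each replication gene (rows, grouped by role) in each library (columns), minus the mean of the gene over the 8 libraries. Red is above and blue below that mean. Jmjd6 KO replicate 3 holds the highest value of 19 genes and the lowest value of 4, Mcm2, Pold1, Uhrf1 and Clspn.

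Origin licensing is carried here by Orc1, the ATPase of the origin recognition complex, by Cdc6, which completes the loading platform, and by Cdt1, which brings the ring. Orc1 stood at 20.3, 12.8, 18.1 and 17.2 CPM in wild type and at 19.9, 16.6, 29.3 and 18.1 CPM in KO replicates 1 to 4. Cdc6 stood at 93.9, 76.1, 85.5 and 87.5 CPM in wild type and at 90.7, 87.8, 133 and 108 CPM in KO. The groups overlapped for both, and the highest value of each was in KO replicate 3. Orc1 gave a log2 fold change of 0.30 (SE 0.24, edgeR adjusted p = 0.845) and Cdc6 0.29 (SE 0.16, edgeR adjusted p = 0.832). Without KO replicate 3 these were 0.09 and 0.16. Cdt1 moved least, with 0.05.

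The helicase genes lay on the higher side in Jmjd6 KO in 12 of 12 cases, with a median log2 fold change of 0.18, although none passed the test and Gins3 turned to -0.04 with limma voom and to -0.0039 without wild type replicate 1 and KO replicate 3. All 6 ring subunits were close to one another, at 0.16 for Mcm2, Mcm4 and Mcm5, 0.17 for Mcm6, 0.24 for Mcm3 and 0.13 for Mcm7, and all 6 intervals lay within 1.5-fold. Mcm6 stood at 798, 819, 862 and 765 CPM in wild type and at 895, 932, 957 and 867 CPM in KO. Mcm3 stood at 369.8, 384, 377 and 424 CPM in wild type and at 436, 429, 540.5 and 429 CPM in KO. In both, every KO library was above every wild type library, by a narrow margin, and the adjusted p by edgeR was 0.833 for Mcm6 (SE 0.12) and 0.832 for Mcm3 (SE 0.14). The 0.24 of Mcm3 was 0.15 without KO replicate 3, its highest library. Mcm2, a customary marker of licensed cells, stood at 351, 369, 368 and 313 CPM in wild type and at 433, 428, 285 and 414 CPM in KO. KO replicate 3 was the lowest of all 8 libraries for Mcm2 while the other KO libraries were the highest, so that the log2 fold change of 0.16 (SE 0.16, edgeR adjusted p = 0.872) became 0.28 without it, with an adjusted p of 0.694. Mcm7 likewise went from 0.13 to 0.22 without that library.

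The GINS complex, which joins the ring to Cdc45, held the largest fold change of the 37 genes with all libraries, that of Gins1; without KO replicate 3 Fen1 was larger, at 0.35, and without wild type replicate 1 Prim1, at 0.61. Gins1 (chr2:150905400-150931280, plus strand, mm10) stood at 37.3, 34.5, 33.2 and 34.5 CPM in wild type and at 39.9, 39.8, 65.4 and 52.1 CPM in KO. Every KO library was above every wild type library, by little in KO replicates 1 and 2 and by more in 3 and 4. Its log2 fold change was 0.50 (95% interval 0.08 to 0.91, SE 0.19, edgeR adjusted p = 0.772), and 0.33 without KO replicate 3. Gins2 stood at 51.4, 49.0, 44.5 and 45.8 CPM in wild type and at 51.3, 53.2, 78.6 and 70.9 CPM in KO, with the same pair of KO libraries high and an overlap between wild type replicate 1 and KO replicate 1. Its log2 fold change was 0.42 (SE 0.18, edgeR adjusted p = 0.792), and 0.30 without KO replicate 3. Gins2 shares 2758 exon bases with Gse1 on the other strand, and the labels do not state whether the counting used strand. The other GINS genes, Gins4 and Gins3, gave 0.24 and 0.06. Cdc45, the partner of GINS, averaged 80.0 ± 9.9 CPM in wild type against 91.4 ± 9.23 CPM in KO, and Mcm10, which helps to fire the loaded helicase, 55.3 ± 6.49 and 63.1 ± 12 CPM (SD, n = 4), both with a log2 fold change of 0.19.

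The polymerase genes had a median log2 fold change of 0.02, with 3 of 4 above 0. That count includes Pole at 0.0008, which turned negative with library size scaling (-0.044) among other settings, and Pola1 at 0.05, which was -0.14 without wild type replicate 2. Prim1, the catalytic subunit of primase, stood at 161, 98.1, 133 and 138 CPM in wild type and at 147, 154, 272 and 168 CPM in KO. Pold1, the catalytic subunit of polymerase delta, stood at 181, 244, 201 and 196 CPM in wild type and at 223, 208, 96.8 and 212 CPM in KO. The library that was highest for Prim1, KO replicate 3, was the lowest for Pold1, and the groups overlapped for both. Prim1 gave a log2 fold change of 0.49 (SE 0.22, edgeR adjusted p = 0.811) and Pold1 -0.15 (SE 0.23, edgeR adjusted p = 0.909). Without KO replicate 3 they were 0.24 and 0.06, so the sign of Pold1 rested on 1 library. Pola1, the catalytic subunit of polymerase alpha, went from 169.7 ± 62.1 to 175 ± 29.3 CPM and ranged from 99.5 to 246 CPM within wild type. Pole, of polymerase epsilon, stood at 76.9 CPM in both groups.

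The clamp and its loader gave log2 fold changes above 0 for all 5 genes, with a median of 0.24, although Rfc3 turned to -0.012 with plain library size scaling and Rfc3 and Rfc4 to -0.038 and -0.097 with limma voom. Pcna, the clamp, stood at 476, 382, 409.6 and 326 CPM in wild type and at 445, 435, 383 and 513 CPM in KO, with wide overlap and a log2 fold change of 0.16 (SE 0.16, edgeR adjusted p = 0.870), with 0.07 and 0.08 when wild type replicate 4 or KO replicate 4 was removed and 0.27 when wild type replicate 1 was. Rfc5 stood at 157, 196, 169 and 181 CPM in wild type and at 216, 183, 251 and 221 CPM in KO. Only wild type replicate 2 and KO replicate 2 overlapped for Rfc5, which gave 0.31 (SE 0.14, edgeR adjusted p = 0.811). Rfc2 stood at 318, 359, 306 and 344 CPM in wild type and at 348, 321, 592 and 436 CPM in KO. Its log2 fold change of 0.36 (SE 0.19, edgeR adjusted p = 0.832) was 0.15 without KO replicate 3. Rfc2 shares 952 exon bases with Lat2 and Rfc5 499 with Wsb2, both on the other strand. Rfc4 and Rfc3 gave 0.24 and 0.04, the former with an SD of 45.1 CPM in KO around a mean of 126 CPM. The log2 fold change of Rfc4 was 0.06 without KO replicate 4 and 0.10 without KO replicate 3.

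Of the lagging strand and repair genes, Fen1, the flap endonuclease that trims Okazaki fragments, had the smallest unadjusted p of the 37, at 0.0174 by edgeR. Fen1 (chr19:10199132-10204169, minus strand, mm10) stood at 188, 205, 171 and 188 CPM in wild type and at 225, 202, 304 and 294 CPM in KO. KO replicates 3 and 4 were well above all other libraries, and KO replicate 2 lay inside the wild type range. It gave a log2 fold change of 0.44 (95% interval 0.09 to 0.80, SE 0.16, edgeR adjusted p = 0.772), and 0.35 without KO replicate 3. Of its 2422 merged exon bases, 1909 are shared with Gm10143, which has no row in the count table, and 130 with Tmem258, both on the other strand. Ung, the uracil DNA glycosylase, stood at 48.7, 61.2, 62.1 and 66.0 CPM in wild type and at 70.7, 75.5, 59.6 and 60.6 CPM in KO. For Ung it was KO replicates 1 and 2 that were high, and the log2 fold change was 0.16 (SE 0.16, edgeR adjusted p = 0.867). Lig1, the ligase that joins the fragments, went from 181 ± 3.52 to 193 ± 13.6 CPM, with 0.09.

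Nucleotide supply was represented by Rrm1 and Rrm2, the subunits of ribonucleotide reductase, and by Tyms, thymidylate synthase. Rrm2 stood at 178, 123, 119 and 111 CPM in wild type and at 143, 121, 222 and 187 CPM in KO. Tyms stood at 167, 137, 132 and 146 CPM in wild type and at 156, 144, 196 and 194 CPM in KO. In both genes wild type replicate 1 was the highest wild type library and KO replicates 3 and 4 were above all of wild type. Rrm2 gave 0.34 (SE 0.21, edgeR adjusted p = 0.832), which was 0.18 without KO replicate 3, and Tyms 0.25 (SE 0.15, edgeR adjusted p = 0.832). Rrm1 gave 0.18, and 0.10 without KO replicate 3.

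Among the chromatin genes Chaf1b, a subunit of the histone chaperone CAF-1, varied least in wild type. It stood at 126, 127, 129 and 127 CPM in wild type and at 149, 132, 163 and 135 CPM in KO, with no overlap and a log2 fold change of 0.18 (SE 0.13, edgeR adjusted p = 0.833). Slbp, which binds the stem loop of replication-dependent histone messenger RNA, stood at 285, 272, 286 and 265 CPM in wild type and at 263, 257, 489.5 and 332 CPM in KO. Its log2 fold change of 0.28 (SE 0.20, edgeR adjusted p = 0.833) was 0.04 without KO replicate 3, and KO replicates 1 and 2 were below all of wild type. Uhrf1, which recruits the maintenance DNA methyltransferase, gave 0.02, and 0.20 without that library, where it was lowest at 162 CPM.

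The genes of S phase entry and its checkpoint had a median log2 fold change of 0.00. Ccne2, an E cyclin, stood at 125, 78.2, 96.7 and 89.4 CPM in wild type and at 99.6, 98.9, 166 and 114 CPM in KO. E2f1, the transcription factor of S phase entry, stood at 32.5, 34.9, 40.9 and 34.4 CPM in wild type and at 39.9, 41.3, 33.0 and 38.0 CPM in KO. The groups overlapped for both. Ccne2 gave 0.30 (SE 0.20, edgeR adjusted p = 0.833), which was 0.10 without KO replicate 3, and E2f1 gave 0.09 (SE 0.16, edgeR adjusted p = 0.917). Ccne1, the other E cyclin, and Clspn, the claspin adaptor of the replication checkpoint, went from 19.1 ± 4.92 to 17.6 ± 3.09 CPM and from 35.5 ± 5.18 to 33.2 ± 4.28 CPM.

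Levels of different genes can be compared per length, here as CPM per kilobase of merged exons. Mcm6 and Pcna were the highest of the 37 in wild type, at 174 ± 8.76 and 166 ± 26.1 (SD, n = 4), and did not differ beyond their spread. By the longest transcript the order turned, with Pcna at 263 ± 41.2 above Mcm6 at 186 ± 9.38 and no overlap between their libraries. On merged exons Mcm3, Mcm5 and Mcm7 followed at 104 ± 6.54, 102 ± 8.43 and 99.4 ± 10.9, also within their spread, then Mcm4 at 85.6 ± 2.68. The lowest were Orc1 at 4.91 ± 0.91 and Clspn at 4.94 ± 0.72. Within the ring the highest subunit was 3.46 times the lowest, and 2.18 times with the longest transcript as the length, where Mcm4 replaced Mcm2 as the lowest. The order of the ring subunits was identical in Jmjd6 KO under either length. In wild type Gins4 was 4.76 times Gins2 within GINS, Rfc4 was 2.44 times Rfc3 within the clamp loader, and Pold1 was 6.14 times Pole among the polymerases. The clamp loader order also held in KO. Under either length Gins3 replaced Gins2 as the lowest of GINS in KO, and Prim1 replaced Pold1 as the highest polymerase gene. On merged exons in KO, Gins3 stood at 14.3 ± 1.77 and Gins2 at 15.5 ± 3.27, and Prim1 at 48.0 ± 15.1 and Pold1 at 38.0 ± 12.2.

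**Figure D4:**
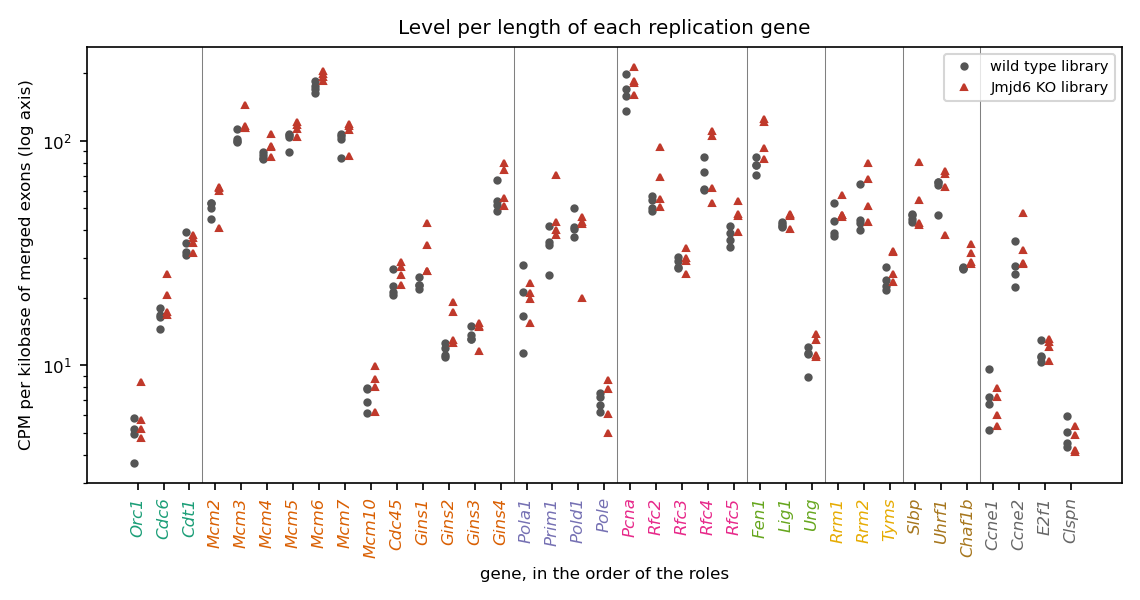
CPM per kilobase of merged exons (y axis, log scale) of each replication gene (x axis, in the order of the roles). Grey circles are the 4 wild type libraries and red triangles the 4 Jmjd6 KO libraries. The genes span from Orc1 and Clspn, with wild type means of 4.91 and 4.94, to Pcna and Mcm6, with 166 and 174.

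Another 68 replication genes, among them other subunits of the same complexes and enzymes of nucleotide synthesis, had a median log2 fold change of 0.09. None passed the test. At an unadjusted p under 0.05 by edgeR there were 3 (4.41%), all higher in KO, against 6.06% of all tested genes. A log2 fold change above 0 was found for 45 (66.2%), against 49.6% of all tested genes. Leaving out wild type replicate 1 took this median to 0.17 and leaving out KO replicate 1 or 2 took it to 0.16, while it was 0.03, 0.06 and 0.05 with KO replicate 3, KO replicate 4 or wild type replicate 3 removed. Prim2, the partner of Prim1 in primase, went from 58.5 ± 5.87 to 86.4 ± 25.3 CPM with a log2 fold change of 0.56 (edgeR adjusted p = 0.746). Shmt1, which feeds one-carbon units to thymidylate synthesis, Dctpp1, which removes modified cytosine nucleotides, and Rpa2, of the single-strand binding complex, gave 0.39, 0.54 and 0.31, with adjusted p from 0.772 to 0.812 by edgeR. Without KO replicate 3 Prim2 gave 0.34 and Dctpp1 0.32. The summed CPM of these 68 genes overlapped between groups. Wild type replicate 1, whose granulocyte and erythroid marker lists summed highest, stood at 8307 CPM among wild type libraries whose mean was 7243 ± 740 CPM.

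The 40 genes of G2 and mitosis, are expressed later in the same cycle. Of these 0 passed the test, and 5 (12.5%) had an unadjusted p under 0.05 by edgeR, against 6.06% of all tested genes. A log2 fold change above 0 was found for 38 (95%), against 49.6% of all tested genes. The median was 0.22. It was 0.35 without wild type replicate 1 and 0.16 with wild type replicate 3, wild type replicate 4 or KO replicate 4 removed. Prc1 and Cdca8, of the spindle midzone and of the chromosomal passenger complex, gave 0.42 and 0.46, and Kif22, a chromosome-arm motor, and Pbk, a mitotic kinase, gave 0.37 and 0.33, with adjusted p from 0.767 to 0.792 by edgeR. Groups did not overlap for these 4 of the 40, each higher in every KO library, against 2.08% of all tested genes. The sum over the 40 genes was 7704 CPM in wild type replicate 1 and 5326 to 5776 CPM in wild type replicates 2 to 4. In KO it was 6566 to 7398 CPM.

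The libraries also differed by the base composition and length of transcripts, relations looked at after the values had been seen. Over the 37 genes the deviation of a library from the mean of the gene ranked with GC content of the longest transcript at a Spearman rho of 0.61 in wild type replicate 2, 0.43 in KO replicate 1, -0.35 in wild type replicate 1 and -0.46 in KO replicate 3. Over all tested genes with a GC value the same rho was 0.50 in wild type replicate 2 and -0.24 in KO replicate 3, so these libraries differ in the same way outside the replication genes. Pold1, the gene of the 37 with the highest GC content at 61.0%, was the highest in wild type replicate 2 and the lowest in KO replicate 3, and Prim1 at 44.0% was the reverse. These correlations are across genes that share libraries and are given as a description. The median GC content was 49.2% for the 37 genes and 49.6% for all tested genes. Transcript length moved with the group comparison over all genes: the log2 fold change ranked with the length of the longest transcript at a rho of -0.31 over all tested genes and -0.13 over the 37, against -0.05 and -0.25 with GC content. By library the rho with length over all tested genes was 0.34 in wild type replicate 3 and -0.40 in KO replicate 4, and over the 37 genes 0.36 and -0.47. With the trend on length and expression level removed, the median of the 37 genes was 0.12 and 31 lay above 0.

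**Figure D5:**
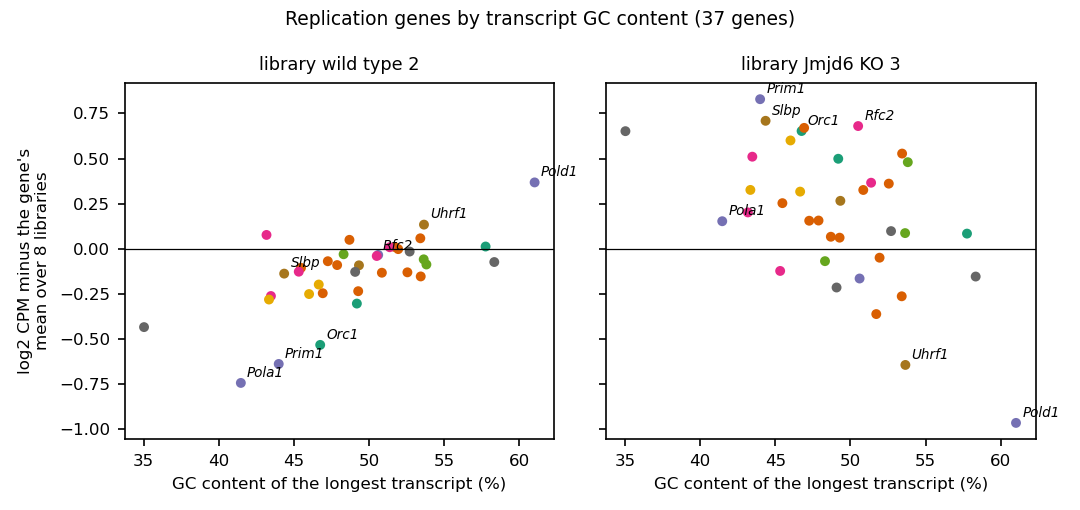
Log2 CPM minus the mean of the gene over the 8 libraries (y axis) against GC content of the longest transcript in percent (x axis) for the 37 replication genes, coloured by role, in wild type replicate 2 and Jmjd6 KO replicate 3. Pold1 at 61.0% GC is at the top of the first panel and at the bottom of the second.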

How the data were processed

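RNA of sorted LSK cells from 4 wild type and 4 Jmjd6 KO mice was sequenced, 1 sample per mouse, per the labels. The authors deposited raw counts by gene symbol (26146 rows) from reads aligned with HISAT2 to mm10 per the submitters' processing notes; the counting tool, its annotation and use of strand are not stated, so overlapping genes may share reads. Every count column was used. Totals were 9344779 to 15079960 counts per library.

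KO was compared with wild type by edgeR 4.0.16 (R 4.3.3; quasi-likelihood test, TMM, filterByExpr with min.count 10 and min.total.count 15), with Benjamini-Hochberg adjustment over 13439 genes and a threshold of 0.05. Log2 CPM used a prior count of 2, and SE and 95% intervals come from that fit. The fit was also run on simulated counts. These held no differences between libraries by base composition or transcript length, so that run cannot speak to such differences here. Alternatives were DESeq2 1.42.0, limma 3.58.1 (voom with sample weights), library size scaling, no filter, a length and level trend removed, a replicate block, and libraries left out. Positions and lengths came from GENCODE M21. Promoter windows came from RefSeq GRCm38.p6.

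The genes were proposed and the lists drawn up by function, with earlier results of these data known. Given in full were the 2 genes of each role with the smallest p, genes with non-overlapping groups, both extremes of fold change, Pcna and Mcm2. Of each further list up to 4 genes with the smallest p were named.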

Additional observations from a re-analysis of the deposited data

Results flagged for a closer look

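For 7 of 82 sets of 4 libraries looked at (the 37 genes, Jmjd6 and the median deviation of 3 gene lists, each in both groups), 1 library lay far from the other 3 relative to their whole range. Chance gives such a gap in about 1 in 20 sets. In Jmjd6 KO replicate 3, Mcm2 stood at 284.8 CPM while the other KO libraries held 414.3 to 433.3 CPM, and Pold1 stood at 96.8 CPM against 207.7 to 222.9 CPM. In the same library Mcm3 stood at 540.5 CPM against 428.6 to 436 CPM, Prim1 at 272 CPM against 147.3 to 168.3 CPM, and Rrm1 at 633.2 CPM against 502 to 515.7 CPM. Lig1 stood at 172.5 CPM in Jmjd6 KO replicate 2 (198 to 201.1 CPM in KO replicates 1, 3 and 4). Uhrf1 stood at 199.6 CPM in wild type replicate 4 (270.9 to 278.7 CPM in wild type replicates 1 to 3). Of these 7 values 5 came from Jmjd6 KO replicate 3.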

How the results depend on the processing

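The 37 genes gave 0 calls in every setting tried, leave-one-out fits included, and the median log2 fold change stayed above 0, between 0.12 and 0.19 over the other settings and between 0.14 and 0.23 with single libraries left out. The number of genes at an unadjusted p under 0.05 was 4 with all libraries (6.06% of all genes), 2 with library size only and 2 with voom (9.96%). It was 0 without the 2 libraries with no Y-linked counts (5.71%). It was also 0 without the 2 that stand apart, wild type replicate 1 and Jmjd6 KO replicate 3 (7.94%). Leaving out 1 library gave 0 (without wild type replicate 3, 3.97%) to 7 (without Jmjd6 KO replicate 2, 6.90%). Genes with non-overlapping groups numbered 4 with all libraries (4.19% of all genes in either direction) and 1 with library size only. They numbered 7 without the no-Y libraries (12%) and 14 without those that stand apart (14.1%). With 1 library left out they numbered 4 to 10. There were 10 without wild type replicate 1 (8.66%) and 7 without Jmjd6 KO replicate 3 (7.97%). With library size only, neither share over all genes was computed. Jmjd6 kept its direction but not its call without the no-Y libraries (-1.02) and without those that stand apart (-1.11), and ranged from -1.06 to -0.99 with 1 library left out, where 7 of 8 fits lost the call (adjusted p 0.0986 to 0.254 by edgeR).

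The labels do not state whether equal numbers mark paired mice. With values centred within each group, same-numbered libraries correlated at 0.03, -0.01, -0.18 and -0.19, which cannot settle that. Libraries with different numbers ranged from -0.29 (wild type replicate 4 with KO replicate 1) to 0.42 (wild type replicate 4 with KO replicate 3). The replicate block joins same-numbered libraries only. With the replicate block the count of replication genes at an unadjusted p under 0.05 was 0. The share over all genes was not computed for that block. In the same fit Jmjd6 gave -1.02 with an adjusted p of 0.402 by edgeR, and Pole and Uhrf1 turned to -0.028 and -0.0049.

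Signs near 0 turned in other settings too: with library size only Cdt1 (-0.0032), Pole (-0.044), Rfc3 (-0.012) and Uhrf1 (-0.026); with no filter Pole (-0.011); with voom Gins3 (-0.040), Pold1 (0.040), Rfc3 (-0.038), Rfc4 (-0.097), Slbp (-0.041) and Clspn (0.016); without the no-Y libraries Cdt1 (-0.0064), Pola1 (-0.046), Pold1 (0.037) and Rfc3 (-0.013); without those that stand apart Gins3 (-0.0039), Pold1 (0.0029), Rfc3 (-0.041), Ccne1 (0.015) and Clspn (0.059). With 1 library left out the ranges that cross 0 were -0.24 to 0.076 for Ccne1, -0.15 to 0.017 for Clspn, -0.14 to 0.29 for Pola1, -0.11 to 0.13 for Pole, -0.00026 to 0.13 for Cdt1, -0.080 to 0.20 for Uhrf1, -0.24 to 0.060 for Pold1 and -0.023 to 0.13 for Rfc3. The cause of these turns was not tested. The ring ratio was 2.18 by longest transcript. In the 100 bases before the start E2F words stood in 13.3% of matched genes (1.7% of tested genes), ETS letters in 16.7% (10.8%) and CHR letters in 6.7% (4.7%), and the E2F core GGCGC stood in 83.3% (66.6%) in the full window. At 4 mice per group, the 95% interval reached past 1.5-fold for all but 22 of the 37 genes.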
